A study of Mus musculus with 8 samples.

Results

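Very deep nuclear sites were cytosines on chromosomes 1 to 19 that carried more than 50 reads in at least 4 of the 8 libraries, outside 2 other deep loci on chromosomes 11 and 17. This rule found 547 sites of the 5365124 sites seen in any library, and they lie in 28 blocks of 10 kb. They were chosen by their read counts alone, so depth is given as a description, whereas the methylation level was not used. Of the 547 sites, 290 passed 50 reads in all 8 libraries, and 69, 45, 68 and 75 did so in 4, 5, 6 and 7 libraries. The same depth was also reached by 165 mitochondrial sites, by 8 sites on X and by 89 sites in the 2 loci left out, and none of these is a member.

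The libraries are NOMe-seq of mouse embryonic fibroblasts, in which nuclei are exposed to the GpC methyltransferase M.CviPI and GpC methylation is then read after bisulfite conversion. There were 4 groups of 2 libraries: control cells (day 0) and cells on day 1 of Etv2-induced reprogramming, each with the enzyme (treated) and without it (untreated). Etv2 is an ETS-family transcription factor of endothelial and blood development. The labels give no strain, sex or embryo age, do not say how Etv2 was induced, and do not state whether replicates are separate cultures. The p-values therefore measure only the spread between these libraries. At 427 to 513 sites per group that spread was little above read sampling. The mean chi-square between the 2 libraries of a group was 1.07 to 1.15 on 1 degree of freedom.

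The mouse genome holds long tandem arrays, among them the A/T-rich major satellite, which surrounds the centromeres, packs into dense heterochromatin and carries CpG methylation in somatic cells. An assembly holds few copies of such arrays, so reads from many genomic copies are placed on the few copies it has. M.CviPI marks cytosines in GpC where DNA is not shielded by a nucleosome or another bound protein, and untreated libraries give the level read without the enzyme. A read count at such a site is therefore a count over all copies that align there, and a level is a mean over those copies. No repeat annotation was used here and no sequence was read at the member sites, so the depth and the distances between sites are what the data give on the repeat nature of the blocks.

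The bases could be read only where sites fell in RefSeq promoter windows, 300 bases long, of the mm10 build (GRCm38.p6). All 62188 covered sites in the 32851 windows (100%) were the C of a GpC followed by A, C or T, with 30753 on the top and 31435 on the bottom strand of the genome. None was followed by G, so none was also a CpG on its own strand. Where 2 neighbouring positions were both covered, the 2127 pairs were always the 2 cytosines of 1 GpC. No member site lies in such a window, and the context of the members is taken from this pattern.

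The members drew far more reads than other sites. Their median ran from 99.5 to 118 reads per library, against a median of 3 over all covered sites, and the deepest site reached 10325 reads. A call is counted for every read that covers a site. Libraries held 1693307 to 3577740 calls, and the members held 179758 to 230130 of them. Their share of autosomal calls was 9.63% to 10.8% on day 0 and 6.52% to 7.77% on day 1. The block chr2:98660001-98670000, an intergenic stretch with 41 members, held 48.8% of all member calls. The 44 sites just inside the rule, with 51 to 55 reads in their fourth-deepest library, had a level of 6.38% untreated and 33.6% treated. The 78 sites just outside, with 46 to 50 reads there, had 5.85% and 36.8%.

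Not every deep site was listed in every library. Of the 547 members, 397 were listed in all 8 libraries and 150 were not listed in at least 1. Among the 150, 126 had over 50 reads in every library that did list them, and 42 had over 100. The gaps took in 31.0% of the members of the blocks with a repeat spacing, described next, and 22.2% of the other members. What leaves these sites out of a library was not tested.

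The spacing of the covered sites divided the blocks. Over distances of more than 100 and up to 400 bp, 234 bp was the distance that blocks shared most. In 10 blocks at least 25% of covered sites had another covered site 234 bp away, within 1 bp, at no less than 5 times the median share of the other distances. These 10 blocks hold 326 of the 547 members. They were grouped after the data were seen, so values are given for them without a test. In the 4 blocks that open the assembled part of chromosome 9, pooled, 78.7% of covered sites had such a partner. In chr14:19410001-19420000 the share was 69.7%, and in the chromosome 2 block it was 29.2%. The chromosome 2 block is thus a weak case, since its largest share, 35.4%, was at 250 bp. Its most frequent distance was 142 bp, with 8 pairs against 7 at 234 bp. The largest share was also elsewhere in chr11:3100001-3110000 (55.3% at 176 bp), chr12:74800001-74810000 (44.4% at 116 bp) and chr12:67050001-67060000 (71.4% at 117 bp). In chr12:67050001-67060000 and chr9:35300001-35310000, with 14 and 23 covered sites, the median share was 0%, so the condition on the median could not fail. Other steps recurred too. Pairs 117 and 118 bp apart were the most frequent in chr11:3100001-3110000, with 14 pairs each, and 351 bp was the most frequent in the chromosome 14 block, with 32 pairs.

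**Figure D1:**
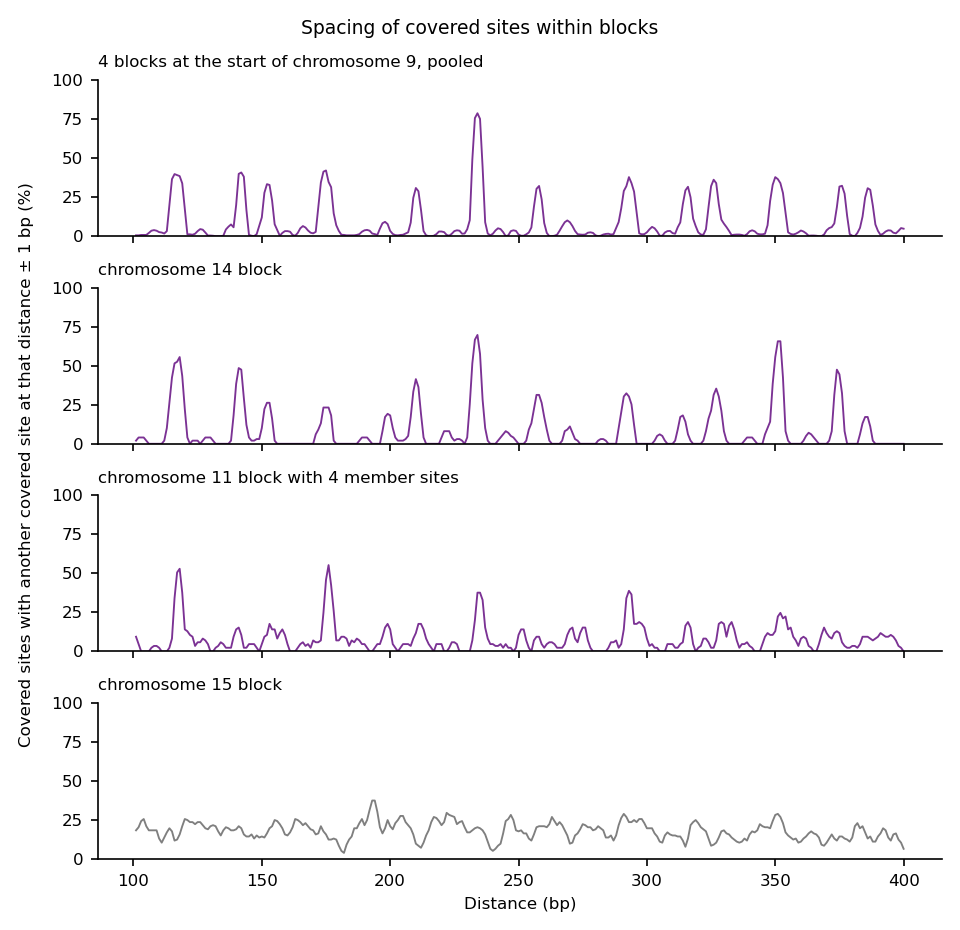
Share of covered sites (percent, vertical axis) that have another covered site at each distance over 100 and up to 400 bp (horizontal axis), within 1 bp, in 3 sets of blocks with the repeat spacing (purple) and in 1 without it (grey). The pooled chromosome 9 blocks peak at 234 bp with 78.7%, and the chromosome 15 block has its highest point, 37.5%, at 193 bp without a series of sharp peaks.

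The level read without the enzyme was high at the members. What this untreated level reflects in the copies read was not tested. The pooled level, methylated calls over all calls, was 26.99% and 27.37% in the day 0 untreated libraries and 30.36% and 29.41% in those of day 1. At the other autosomal sites it was 2.27% ± 0.0388 (SD, n = 2) on day 0 and 1.06% ± 0.0057 (SD, n = 2) on day 1. The members were thus higher in 4 of 4 untreated libraries, by a mean of 26.9 percentage points (exact two-sided sign-flip permutation test, p = 0.125, the smallest 4 libraries allow). Calls weigh deep sites most. With each of the 397 sites listed everywhere weighted equally the difference was 14.3 points, and with each block weighted equally it was 10.2.

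The high untreated level lay mostly in the blocks with the repeat spacing. There the untreated level was 29.6% ± 0.521 (SD, n = 2) on day 0 and 31.8% ± 0.731 (SD, n = 2) on day 1, against 6.64% ± 0.57 and 7.98% ± 0.0242 (SD, n = 2 each) in the 18 other blocks. The latter value rests largely on the 3 of those blocks that have fewer than 10 covered sites. Their 8 members read 27.97% and 28.9% on the 2 days, and the 213 members of the 15 blocks left read 2.46% ± 0.0864 and 2.32% ± 0.0429 (SD, n = 2 each). By site, 206 of 325 members in spaced blocks had an untreated level of 20% or more, and 6 of 221 members elsewhere did. Of the 7538 other autosomal sites with at least 40 untreated reads, 172 reached 20% (2.28%), and 132 of those 172 were themselves in the spaced blocks without being members. The highest untreated level of a member was 57.5%.

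**Figure D2:**
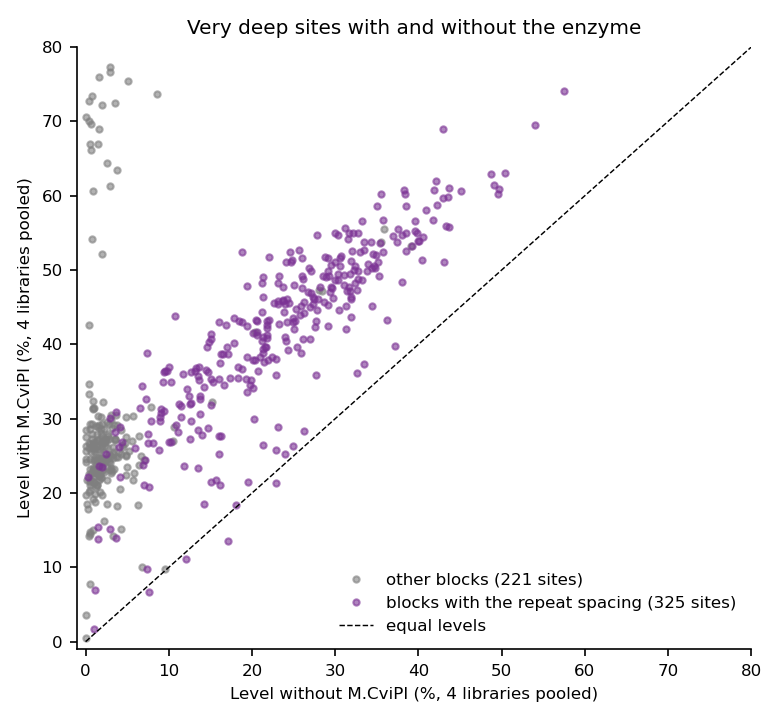
Level of each member site without M.CviPI (horizontal axis, percent of calls, 4 untreated libraries pooled) and with it (vertical axis, 4 treated libraries pooled), in blocks with the repeat spacing (purple, 325 sites) and in other blocks (grey, 221 sites), where the dashed line marks equal levels. The purple sites run along a band above the line from near 0% to 57.5% untreated, and the grey sites stand mostly below 5% untreated; 542 of the 546 sites lie above the line.

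The 7 spaced blocks with 8 or more members all had a high untreated level, between 19.1% and 37.0% on day 0 and between 19.8% and 38.2% on day 1. The 3 smaller ones, all with short steps of 116 to 118 bp among their commonest distances, did not. In chr12:74800001-74810000, with 5 members, it was 6.50% ± 0.137 (SD, n = 2) on day 0. In chr11:3100001-3110000, with 4, it was 2.47% ± 0.382 (SD, n = 2), and in chr12:67050001-67060000, with 2, it was 7.25% ± 1.27 (SD, n = 2). The last lies in Mdga2, a gene for a neuronal cell-surface protein. The reverse also occurred: chr12:3100001-3110000 and the adjoining chr12:3110001-3120000, with 3 and 1 members close to their shared border, read 32.3% and 27.4% untreated on day 0. Those 2 blocks have only 7 and 9 covered sites, too few for the spacing rule, which needed 10. The 2 remaining sites of 20% or more outside the spaced blocks were 1 in chr13:77430001-77440000 at 20.4% and 1 in chr15:75080001-75090000 at 39.1%.

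The enzyme raised the level at the members. The day 0 treated libraries read 46.31% and 47.98%, and those of day 1 read 48.43% and 48.62%, so every treated library stood above every untreated one. The difference was 19.96 points on day 0 and 18.64 points on day 1 (exact two-sided permutation of libraries, p = 0.333 for each, the smallest that 2 against 2 allow). In the whole-block fit, which took all covered sites of a block, limma called all 28 member blocks higher with the enzyme on both days, where 98.7% of the 1240 blocks fitted were called on day 0 and 99.4% on day 1. At single sites it called 369 of the 396 members fitted on day 0 and 362 on day 1, against 96.3% and 96.4% of the 1648 sites fitted. The other 151 members lacked the 20 calls in each library that the fit needed. These shares are close to the background and are no result about the members.

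In percentage points the treated members stood 18.1 above the other autosomal sites (exact two-sided sign-flip permutation test, p = 0.125, the smallest possible), which were at 29.1% ± 0.0526 on day 0 and 30.4% ± 0.0228 on day 1 (SD, n = 2 each). That difference too depended on the weights, and was 8.25 points with sites weighted equally, 7.84 with blocks weighted equally and 2.27 in the blocks without the spacing. The gain over the untreated level was smaller at the members, 19.96 and 18.64 points against 26.8 and 29.3. As a share of the calls that were unmethylated without the enzyme, the gain at the members was 27.4% on day 0 and 26.6% on day 1, against 27.4% and 29.6% at the other sites. On the log2 odds scale, the median enzyme effect of the member blocks was 2.27 on day 0 and 2.53 on day 1, against 3.75 and 4.45 over all blocks fitted. When each library was centred on its own median block, so that the sign gives a block's place relative to the median block, limma called 4 member blocks higher and 14 lower on day 0, and 5 higher and 17 lower on day 1. The log2 odds scale weights a step near 0% more than the same step near 30%.

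The largest block with the repeat spacing by members was chr9:3000001-3010000, with 74. Its level was 30.6% and 31.8% in the day 0 untreated libraries, 33.4% and 32.2% in the day 1 untreated ones, 48.1% and 50.5% in the day 0 treated ones and 49.6% and 49.3% in the day 1 treated ones. The days stood apart without the enzyme and overlapped with it. In the whole-block fit limma did not call the untreated difference (adjusted p = 0.467).

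In chr14:19410001-19420000, with 62 members and no annotated gene, the untreated libraries read 19.5% and 18.8% on day 0 and 19.9% and 19.7% on day 1. The treated ones read 38.5% and 39.4%, then 39.99% and 40.5%. The days did not overlap with or without the enzyme, but the gaps were small. In the whole-block fit limma called neither difference (adjusted p = 0.816 untreated and 0.996 treated).

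Its neighbour in size, chr9:3020001-3030000, with 61 members, had the highest levels of the blocks with the spacing. It read 36.9% and 37.1% untreated on day 0, 39.0% and 37.4% on day 1, then 53.6% and 55.03% treated on day 0 and 54.9% and 55.01% on day 1. The treated libraries of the days overlapped.

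Between those 2 chromosome 9 blocks, chr9:3010001-3020000, with 40 members, read 20.95% and 21.1% untreated on day 0 and 21.3% and 21.8% on day 1, then 37.6% and 39.7% treated on day 0 and 39.3% and 40.3% on day 1. The fourth of these neighbours, chr9:3030001-3040000, with 29 members, had 19.99% ± 0.434 and 20.5% ± 0.265 untreated and 38.7% ± 0.49 and 39.6% ± 0.784 treated on days 0 and 1 (SD, n = 2 each). It contains the annotated Mir101c, a microRNA gene, which no member site overlaps. Neighbouring blocks with the same spacing thus differed in the untreated level, with 37.0% in the third and 21.0% in the second on day 0.

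The chromosome 2 block read 30.2% and 31.4% untreated on day 0 and 33.7% and 32.7% on day 1. With the enzyme it read 50.4% and 51.9% on day 0 and 51.66% and 51.69% on day 1. The untreated libraries of the days did not overlap, and the treated ones did. Within the block the sites differed widely: reads at single members ran from 53 to 10325 in a library, untreated levels from 1.12% to 49.6% and treated levels from 6.94% to 60.8%. Depth and level went together here. The 19 members with over 1000 reads on average all read 25.02% to 49.6% untreated and 44.7% to 60.8% treated, and the 8 members under 5% untreated all had 53 to 770 reads. These 8 read 6.94% to 25.2% with the enzyme. Members of a block share libraries and overlapping reads, so this is a description.

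**Figure D3:**
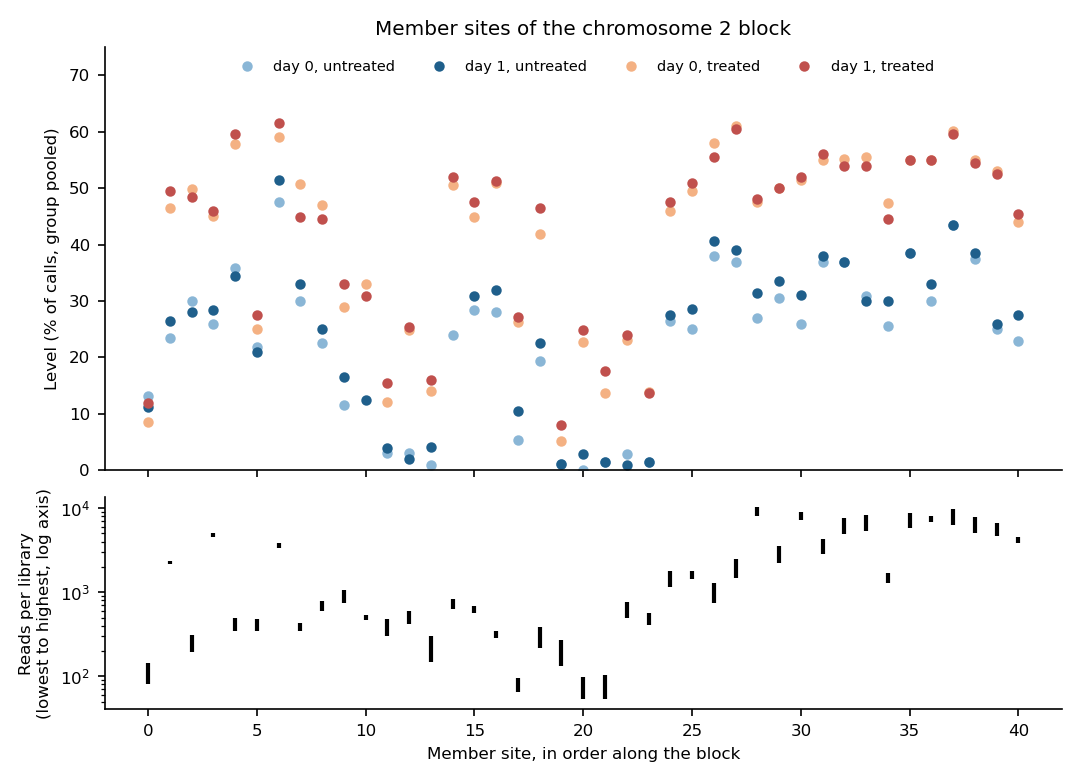
The 41 member sites of the chromosome 2 block in their order along it (horizontal axis, first site at 0), with the level per group (upper panel, percent of the group's pooled calls) and the lowest and highest reads per library (lower panel, log axis). The 8 sites under 5% untreated lie near the middle and carry at most 770 reads, and the deep sites of the right part have untreated and treated points that stay well apart.

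Of the further blocks with at least 10 members, 5 lack the repeat spacing, and all 5 were low without the enzyme. The largest is chr17:13550001-13560000, with 115 members packed into 2347 bp of the lncRNA gene 2700054A10Rik. Its level was 2.75% and 2.17% untreated on day 0, 3.02% and 2.39% on day 1, then 24.5% and 25.5% treated on day 0 and 25.5% and 27.1% on day 1. The untreated libraries of the days overlapped. Around these members 834 sites were covered, so dense that 74.7% had a partner 234 bp away, which is no more than the 76.0% median of the other distances.

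In 3 others the treated level was between 23.3% and 27.4%, below that of the other autosomal sites. In chr15:75080001-75090000, with 34 members, it was 2.50% ± 0.347 and 2.42% ± 0.335 untreated and 23.4% ± 0.33 and 27.4% ± 1.96 treated on days 0 and 1. In chr17:13300001-13310000, with 12 members inside the lncRNA gene Gm36684, the treated level was 25.8% ± 0.367 and 23.4% ± 0.207. In chr18:40300001-40310000, with 13 members inside Kctd16, which encodes an auxiliary subunit of GABA-B receptors, it was 23.6% ± 0.404 and 23.3% ± 0.99 (SD, n = 2 each).

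The fifth stood out for the enzyme's effect. In chr13:9010001-9020000, whose 16 members lie within 94 bp of the lncRNA gene Gm36264, the untreated libraries read 1.85% and 1.85% on day 0 and 1.12% and 1.85% on day 1. The treated ones read 57.1% and 59.1% on day 0 and 60.5% and 63.8% on day 1. Its 4 treated libraries lay above all treated libraries of the named blocks with the spacing. The enzyme effect was 6.34 (SE 0.235) on the log2 odds scale on day 0 and 6.80 on day 1 (limma, adjusted p = 3.56e-14 and 8.51e-15).

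Levels of this size recurred in 3 small blocks. In chr11:109010001-109020000, with 5 members in the lncRNA gene Gm36876, the level went from 4.69% ± 2 untreated to 65.7% ± 8.85 treated on day 0 and from 2.18% ± 0.019 to 70.2% ± 3.24 on day 1. In chr5:146260001-146270000, with 3 members in Cdk8, the gene of a Mediator kinase, it went from 3.61% ± 2.52 to 51.8% ± 15.4 and from 0.391% ± 0.552 to 65.5% ± 9.52. The single member of chr17:36230001-36240000 went from 0.943% ± 1.33 to 60.8% ± 1.51 and from 0% to 72.6% ± 14.7 (SD, n = 2 each). It has 28 to 62 reads per library, and the day 1 zeros, at 33 and 28 reads, allow levels up to 9.09% and 10.7%.

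**Figure D4:**
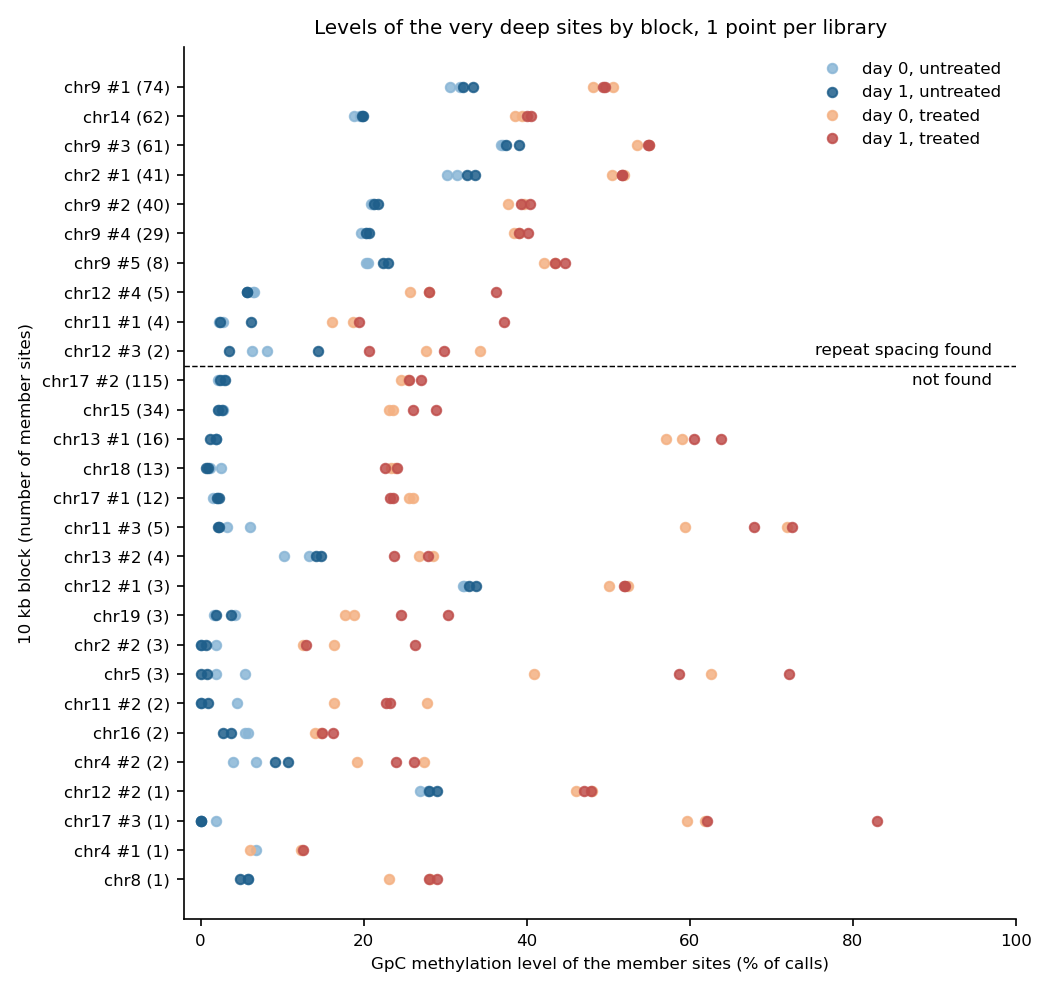
Level of the member sites (horizontal axis, percent of calls) in each 10 kb block (vertical axis, named by chromosome and order along it, with the number of member sites), 1 point per library and 1 colour per group. Above the dashed line are the 10 blocks with the repeat spacing. Their 7 largest have a day 0 untreated mean of 19.1% or more. Below the line most untreated points lie under 10%. The blocks there with treated levels above 50% include chr13 #1, chr11 #3, chr5 and chr17 #3.

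The remaining small blocks without the spacing held 1 to 4 members each, within Litaf, Atrnl1, Cdk5rap2, Ank1, 2210408I21Rik, Gm40034 or no gene with a member. Litaf encodes an endosomal membrane protein, Ank1 an ankyrin of the red-cell membrane skeleton, and Cdk5rap2 a centrosomal protein. Over all 18 blocks without the spacing the treated level on day 0 ran from 9.21% to 65.7%, with a median of 25.3%. The single members of chr4:3080001-3090000 and chr8:23090001-23100000 were not listed in some libraries and have no untreated mean for day 0.

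Between days, the level of the treated libraries at the members was 1.38 points higher on day 1 (exact two-sided permutation, p = 0.333, the smallest possible). It was 0.549 without day 0 treated replicate 1 and 2.22 without day 0 treated replicate 2, and it was 0.695 in the spaced blocks and 3.26 in the other blocks. The chromosome 2 block also bears on it, since it was 2.12 without that block, and with blocks weighted equally it was 2.72. At the other autosomal sites it was 1.29 points higher. The difference between those changes was 0.0891 points (p = 1 by the same exact permutation), and its sign turned with the choice of members. Limma called 0 of the 28 member blocks in the treated libraries, against 0.242% of all blocks. None reached an unadjusted p of 0.05 in limma, and edgeR called 0 with 6 under 0.05, against an edgeR share of 0.242% over all blocks. It called 0 of the 396 member sites, against 0% of all sites, with 12 at an unadjusted p under 0.05, and edgeR called 0 with 28, against an edgeR share of 0.607% over all sites. The median log2 odds change was 0.12 for the member blocks and 0.12 for all blocks.

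In the untreated libraries the members were 2.70 points higher on day 1 than on day 0, while the other autosomal sites changed by -1.21 points. The difference between these changes was 3.91 points (exact two-sided permutation, p = 0.333 for both comparisons, the smallest possible). The value at the members depended on the weights: it was 0.46 points with the sites weighted equally and 0.333 with the blocks weighted equally. It was 2.15 points in the spaced blocks and 1.34 in the other blocks, each below the pooled 2.70. The pooled value, and with it the 3.91, therefore also holds a shift of calls between these sets of blocks. Within the 7 spaced blocks of 8 or more members the untreated level was higher on day 1 in 7 of 7, by 0.463 to 2.35 points. Over all 10 spaced blocks it was higher in 9, the exception being chr12:74800001-74810000 at -0.779 points. Among the blocks without the spacing it was higher in 6 of the 16 with values, and it was -0.143 points over those with at least 10 covered sites. In the whole-block fit the untreated change was positive in 14 of the 28 member blocks and in 314 of the 1240 blocks fitted. Rounding of the deposited fractions alone allows each library's pooled level to be about 0.4 points lower or higher.

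Limma called 2 of the 28 member blocks between days in the untreated libraries (7.14%), against 4.44% of all blocks. Of all blocks 0.323% were called higher and 4.11% lower, against 1 member block each way. The edgeR fit called 1, against 2.1% of all blocks. Without day 1 untreated replicate 2 limma called 6 member blocks, 2 higher and 4 lower, against 3.87% of all blocks in the same refit. The chromosome 2 block rose by 0.16 (SE 0.0377) on the log2 odds scale (limma, adjusted p = 0.019). That call was lost in edgeR (adjusted p = 0.144), without day 0 replicate 1 (0.216), without day 1 replicate 1 (0.107) and at the rounding bound least favourable to it (0.186). The chromosome 18 block fell by 1.74, with a whole-block level of 2.39% and 1.76% on day 0 and 0.413% and 0.864% on day 1 (limma, adjusted p = 0.00213). It was lost when libraries were centred on their median (0.0955), a scale on which the untreated libraries of all blocks no longer fall together. The median change was -0.02 for the member blocks and -0.58 for all blocks.

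Beyond those calls, the block of chromosome 9 with 8 members, chr9:35300001-35310000 in the lncRNA gene Gm33838, had the smallest p among the further blocks with a positive change. It changed by 0.18 (SE 0.0946), with an adjusted p of 0.299 in limma. The 3 smallest p among negative changes were in chr11:54140001-54150000, chr11:109010001-109020000 and chr5:146260001-146270000, at -0.94, -0.82 and -0.80 with limma adjusted p-values of 0.0651, 0.093 and 0.159. In the treated libraries the further blocks with the smallest p had limma adjusted p-values of 0.996 to 0.999.

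At single sites limma called 15 of 396 members between days in the untreated libraries (3.79%), 9 higher and 6 lower, against 3.09% of all sites (0.728% higher and 2.37% lower). The edgeR fit called 5, all higher, and these are all of the sites it called (0.303% of those fitted). The limma count depended on the libraries kept. It fell most without any 1 treated library, which enters this comparison only through the shared estimate of spread. It also fell without day 0 untreated replicate 1 and without either day 1 untreated library, but not without day 0 untreated replicate 2. The deepest, chr2:98666782, read 26.0% and 28.0% on day 0 and 32.0% and 31.0% on day 1 at 8172 to 10325 reads, a rise of 0.31 (SE 0.0453) on the log2 odds scale (limma, adjusted p = 0.00465). Its treated libraries read 47.0% and 48.0%, then 48.0% and 48.0%. Leaving out any 1 treated library, which does not change its untreated values but leaves fewer libraries for the shared estimate of spread, ended the call, with adjusted p-values of 0.0513 to 0.0608. Site chr2:98666874 read 25% and 27.0%, then 32.0% and 30.0%, a rise of 0.35 with the same adjusted p. It too was lost without any 1 treated library and without day 0 untreated replicate 1 (adjusted p = 0.0627).

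Some called sites lay close to 0%. Site chr2:98662793 read 1.09% and 0.676% on day 0 and 4.18% and 4% on day 1 at 148 to 300 reads, a rise of 1.63 (adjusted p = 0.00465 in limma and 0.271 in edgeR). In Kctd16, chr18:40308301 read 4.35% and 3.45%, then 0% and 0% at 29 to 88 reads, where 0 of 88 and 0 of 80 reads allow levels up to 3.41% and 3.75%. Limma put its fall at 2.53 on the log2 odds scale (adjusted p = 0.0112, against 0.384 in edgeR). With 1 added to both counts, a level of 0% gives lower log2 odds at more reads. Part of the size of this fall therefore comes from the higher read counts on day 1. At chr18:40308220 the untreated libraries read 6.12% and 3.57%, then 1.10% and 0%, with adjusted p = 0.0187 in limma and 0.546 in edgeR.

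Among treated libraries, the sites with the smallest p lay in 5 blocks, and none passed the adjustment (limma, adjusted p = 0.571 for each). Only the smallest p in each direction is given here. For rises this was site chr15:75086726, which read 12.8% and 16.7% on day 0 and 28.8% and 25.4% on day 1. For falls it was site chr15:75085734 in the same block, which read 13.9% and 13.3%, then 1.92% and 5.88%. The groups did not overlap at either site, and the differences had opposite directions.

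The net change, the enzyme's effect on day 1 less that on day 0, was -1.32 points at the members (exact two-sided permutation of days within treated and within untreated libraries, 36 arrangements, p = 0.556, with 0.0556 the smallest possible). At the other autosomal sites it was 2.50 points. The sign at the members turned with the weights. It was 1.06 with sites weighted equally, 2.39 with blocks weighted equally, and 1.92 in the blocks without the spacing. Limma called 0 of 28 member blocks, against 1.53% of all blocks, with 7 at an unadjusted p under 0.05, and edgeR called 5, all higher, against an edgeR share of 2.66% over all blocks. The chromosome 18 block had the smallest limma p, with a net change of 1.73 (SE 0.442, adjusted p = 0.0604).

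At single sites limma called 1 member for the net change (0.253% of 396, against 0.0607% of all sites), and edgeR called 0 members, against 0% of all sites, with 33 at an unadjusted p under 0.05. Site chr2:98666501 read 3% and 2.94% untreated on day 0 and 1.01% and 1.07% on day 1, and 21.9% and 24.0% treated on day 0 and 25.04% and 23.0% on day 1, at 500 to 770 reads. The untreated values did not overlap and the treated ones did. Its net change was 1.49 (SE 0.199, limma adjusted p = 0.00618). The call was lost in edgeR (adjusted p = 0.246) and without any 1 of the treated libraries (0.0827 to 0.22), and the untreated fractions are 1 to 3 steps of the last deposited decimal.

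The 2 strands of a GpC could be compared if adjacent members are its 2 cytosines, as in the promoter windows. There were 126 such pairs, and their bases were not read. M.CviPI recognises GpC on both strands alike. Levels were pooled over the libraries that list each cytosine, so some pairs set unlike libraries side by side. The median difference within a pair was 3.004 points untreated and 5.11 points treated. In the spaced blocks, with 71 pairs, it was 6.45 and 7.51 points, and in the other blocks, with 55 pairs, 1.29 and 3.28. Reads differed too: the deeper strand had a median of 1.48 times the reads of the other, and in 3 pairs, all in spaced blocks, over 5 times, up to 11.6.

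The pair chr2:98666781 and chr2:98666782 shows this. The first had 1474 to 2468 reads per library and the second 8172 to 10325. Untreated, the first read 37.0% and 37.0% on day 0 and 39.98% and 38.0% on day 1, and the second 26.0% and 28.0%, then 32.0% and 31.0%. Treated, they read 60.0%, 62.0%, 59.0% and 62.0% against 47.0%, 48.0%, 48.0% and 48.0%. The first cytosine was higher in 8 of 8 libraries, and the ranges did not overlap within a treatment.

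A further pair in the same block, chr2:98667124 and chr2:98667125, was near equal in depth, with a ratio of 1.03. Untreated, the first read 38.0% to 39.0% and the second 29.0% to 34.0%, without overlap. Treated, both read 55% in all 4 libraries. In chr9:35300001-35310000, the pair chr9:35305451 and chr9:35305452 read 24.0% and 9.26% untreated and 45.4% and 35.0% treated. Sites 1 spacing apart could be set beside other pairs in the spaced blocks. Members exactly 234 bp apart differed by a median of 8.23 points untreated and 6.88 treated over 69 pairs, against 8.14 and 8.62 over 889 pairs at other distances over 100 and up to 400 bp.

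The share of calls that fell on the members was lower on day 1, which is given as a description because depth chose them. In calls over member sites per 1000000 autosomal calls, every day 1 library lay below every day 0 library in 19 of 28 blocks, and in 0 blocks above. Over whole blocks the count was also 19 of 28, against 14.1% of the 1240 blocks fitted. Counting error hides such a separation more easily in blocks of few calls, and depth chose the members. These shares therefore cannot show whether member blocks differ from the others. The median ratio of day 1 to day 0 was 0.685 for member blocks and 0.761 for all blocks fitted. The day 1 libraries list 792322 to 1012656 sites and those of day 0 439527 to 568331, each with at least 3 reads, and the part of that in these ratios was not tested.

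Blocks differed in the size of that difference. The chromosome 2 block had 46192 to 52385 such calls on day 0 and 32587 to 37683 on day 1, a ratio of 0.719. Its raw calls were not lower on day 1: they were 87105 to 103129 on day 0 and 105951 to 114966 on day 1. In chr17:13550001-13560000 the raw calls were lower on day 1, going from 7906, 9187, 11530 and 10969 on day 0 to 5797, 5574, 6512 and 6978 on day 1, with no overlap. Scaled in that way the means are 5128 and 2000 calls, 2.56-fold lower on day 1. The block in Gm36684, on the same chromosome, went from 473 to 193 scaled calls. The block in Kctd16 had 299 and 317 scaled calls.

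**Figure D5:**
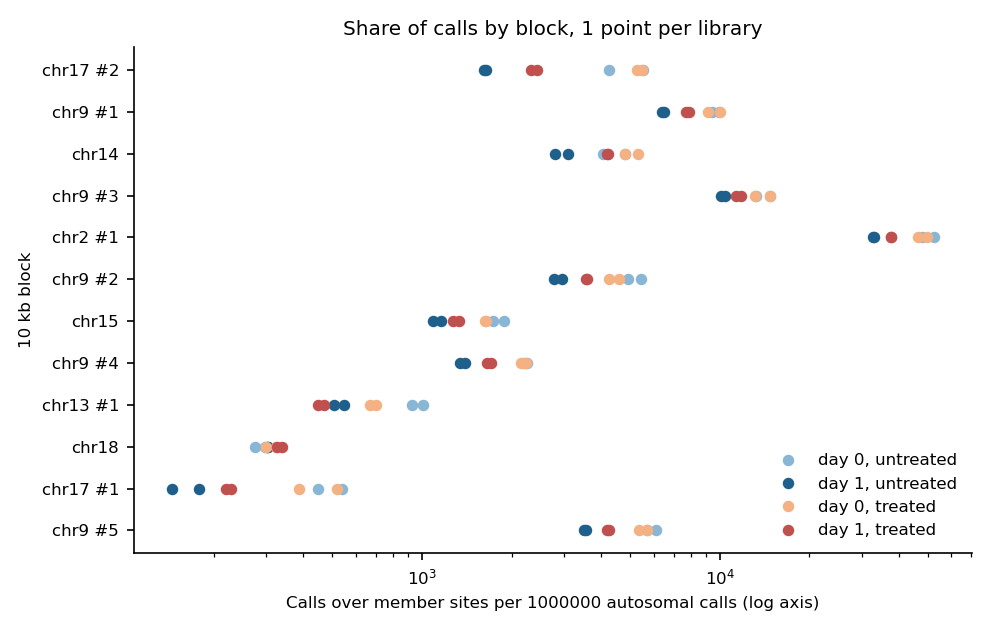
Calls over member sites per 1000000 autosomal calls (horizontal log axis) in the blocks with 8 or more members (vertical axis, named by chromosome and order along it), 1 point per library and 1 colour per group. Day 1 points lie to the left of day 0 points in most blocks, furthest in chr17 #2, where the mean went from 5128 to 2000, and overlap in the chr18 block.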

How the data were processed

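NOMe-seq of 8 libraries was analysed from per-cytosine tables on genome build mm10, per the submitters' processing notes. The authors deposited for each cytosine the methylated fraction, rounded to 2 decimals, and the read count, with at least 3 reads per site. The sources used here name no aligner, caller, read filter or duplicate handling. They do not state how multiply mapping reads were placed, which bears on depth and level at repeats.

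Methylated reads were the rounded product of fraction and count. Levels are methylated calls over all calls, compared by exact permutation over libraries. For 10 kb blocks and single sites with at least 20 calls in every library, limma 3.58.1 in R 4.3.3 fitted the log2 odds, with 1 added to both methylated and unmethylated calls. The model had 4 group means and a coverage trend, with Benjamini-Hochberg adjustment over all 1240 blocks or 1648 sites, threshold 0.05. An edgeR 4.0.16 quasi-likelihood fit was an alternative. Data were simulated for the treated libraries between days, with the SD between libraries set in natural-log odds. Changes were placed at random among all features fitted, so the rates are not those of the members. Limma found 37% of block changes of 2 and 5% of changes of 1 (log2 odds) at an SD of 0.1, with 0 false calls. At the same SD it found 36% and 3% of site changes. At an SD of 0.3 it found 25% and 1% of block changes and 33% and 1% of site changes. The edgeR fit found 92% and 34% of block changes at the smaller SD, with 4 false calls, and 48% and 7% at the larger, with 0. Tables were made with Python 3.11.15 (pandas 2.3.3, scipy 1.17.1) and plots with matplotlib 3.10.9.

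Blocks with at least 10 members are named. Among the others, the 3 smallest p per direction of each comparison between days were picked out, and only some of these are named. Single sites were picked out by the same rule within named blocks, and the values of only some are given. Further blocks and called sites named for their levels were chosen after their values were seen. The members, blocks and rules were chosen with earlier results of these data known, and the groups by spacing and by number of covered sites after the sites were seen. Library totals ran from 1693307 to 3577740 calls, and intervals from reads cover counting error only. Alternatives changed the read threshold, weights, normalization, filter, libraries and rounding.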

Additional observations from a re-analysis of the deposited data

Results flagged for a closer look

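At site chr2:98666501 the change between days differed between the treated and the untreated libraries by 1.49 on the log2 odds scale (limma, adjusted p = 0.00618 over all sites fitted). The untreated fractions there went from 0.03 to 0.01 in both libraries of each day, and the treated level stayed between 21.9% and 25.04%. The edgeR fit did not call it (adjusted p = 0.246).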

How the results depend on the processing

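With 2 libraries per group no exact test of levels could pass 0.05, so only directions and sizes can be compared there. For pooled levels, the enzyme effect, the higher untreated level on day 1 and the higher levels at members kept their direction under the alternatives run for them (read threshold, weights, a block or library left out, spacing, replicate block), but the untreated day change was -0.143 points in the blocks without the spacing that have at least 10 covered sites. The net change turned to 1.06 (sites weighted equally), 2.39 (blocks weighted equally) and 1.92 (blocks without the spacing) points. The treated day change against other sites turned to -0.43 (over 100 reads), -0.281 (over 50 reads in all 8 libraries) and -0.599 points (spaced blocks).

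Centring each library on its median block or site gave 18 and 22 blocks called for the enzyme on days 0 and 1 (14 and 17 lower) and 333 and 331 sites (323 and 317 lower). With nearly all features called higher before centring, these signs only place members against the median. Centring also gave 8 blocks and 40 sites called in the untreated day comparison, and 6 blocks and 4 sites for the net change. It turned the net change of chr9:3010001-3020000 to -0.72 and of chr14:19410001-19420000 to -0.72. The edgeR fit called 1 block and 5 sites in the untreated day comparison, and 5 blocks and 0 sites for the net change. Asking for 50 calls per library gave 4 blocks in the former and 3 in the latter. The least favourable rounding left 1 block.

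Leaving out 1 library gave enzyme effects of 19.1 to 20.8 and 18.2 to 19.1 points. Day changes were 0.549 to 2.22 treated, 2.23 to 3.17 untreated and -2.15 to -0.484 net, and against other sites -0.782 to 0.96 treated and 3.44 to 4.38 untreated. Level differences from other sites were 26.1 to 27.6 untreated and 17.8 to 18.4 treated. Block calls were 27 to 28 on both days for the enzyme, 0 treated, 2 to 6 untreated and 0 to 2 net. Site calls were 347 to 371, 344 to 366, 0, 1 to 15 and 0 to 1. Without day 1 untreated replicate 1, chr17:13550001-13560000 turned to -0.30 in the untreated day comparison, and over all libraries left out it ran from -0.30 to 0.51.

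The deviations of same-numbered libraries were not correlated (r from -0.0214 to 0.0237 over blocks). Counting error in blocks of few calls can hold r near this range, so the check cannot decide whether same-numbered libraries were paired. With the replicate number as a block, the untreated day comparison gave 12 sites and 2 blocks, the net change 1 site and 0 blocks, and the exact p of the enzyme effect was 0.5.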
